A study of Mus musculus with 8 samples.

Results

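mDC2 is one of the myeloid dendritic cell clusters that the authors named by hand in single-cell RNA-seq of leukocytes from mouse brain, pia and dura. Its members were taken here as every cell whose cluster in the deposited annotation was mDC2, matched by barcode to the counts of the library named beside it. They were 991 of 32457 annotated cells, or 3.05%, and of 36854 barcodes in 8 libraries. The mDC1 cluster held 1131 cells and the macrophage cluster Macro_2 held 3840 cells, and both served for comparison within the same library.

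The study asked how leukocytes of the brain and of its covering membranes respond to stroke. All mice were male C57BL/6 (C57BL/J in the titles) of 10 to 16 weeks, and the labels name no allele or transgene in any group. Control mice were naive by the study's methods, though it elsewhere calls controls sham, and the others had undergone transient middle cerebral artery occlusion (MCAO), in which a filament blocks the artery for 30 or 45 min before reperfusion. Which of these durations each library had was not given in the sources used here. Cells negative for a CD45 antibody given intravenously and positive for CD45 were sorted, so that blood leukocytes were depleted. Single libraries came from control brain, pia and dura, from pia and dura at 24 h after MCAO and from brain at 72 h, and 2 libraries came from brain at 24 h. The study states that mice were pooled and gives their number per compartment but not per library, so p-values measure only the spread between these libraries.

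Conventional dendritic cells take up antigen in tissues and present it to T cells. They are divided into cDC1, which depend on Irf8 and Batf3 and carry Xcr1 and Clec9a, and cDC2, many of which carry Cd209a, Mgl2, Clec10a and Sirpa. After activation both kinds can enter a mature, migratory state marked by Ccr7, which guides them along lymphatic vessels to lymph nodes, and by the actin-bundling protein Fscn1. The dura contains lymphatic vessels and is one of the places from which dendritic cells of the central nervous system borders drain.

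A pair of the 8 libraries stood apart from the rest in gene list and barcodes. The second replicate of brain at 24 h and the brain library at 72 h were counted against a list of 31053 genes and the other 6 libraries against a list of 32285 genes. The pair shared 13 cell barcodes with each other and each shared 0 to 2 with any of the other 6, which shared 12 to 43 among themselves. No mDC2 barcode was shared between any libraries. Over genes with at least 50 CPM (a gene's UMIs over all UMIs of the cluster in a library, scaled to the same total) on average, the correlation of log2 levels in mDC2 was 0.934 between the pair, 0.911 to 0.96 among the longer-list libraries with at least 30 mDC2 cells, and 0.644 to 0.689 between a library of each kind. Macro_2 showed the same division in those libraries, at 0.937, 0.922 to 0.963 and 0.597 to 0.654. Those longer-list libraries are all pia or dura and the pair is all brain, so gene list and tissue cannot be told apart in these ranges. Of the longer-list brain libraries with fewer mDC2 cells, brain at 24 h replicate 1 correlated at 0.775 to 0.887 with the membranes and at 0.616 and 0.629 with the pair. Control brain correlated at 0.661 to 0.715 with the membranes, at 0.573 with that replicate and at 0.52 and 0.556 with the pair. Its sum held only 15 cells and 40731 UMIs, and counting error at such depth lowers every correlation with it. Whether it was apart from the membranes beyond that was not tested. In Macro_2, control brain (35 cells) correlated at 0.78 to 0.82 with the membranes and at 0.596 and 0.594 with the pair. Brain at 24 h replicate 1 (56 cells) correlated at 0.759 to 0.863 and at 0.619 and 0.616. Both brain libraries were thus nearer to the membranes than to the brain pair in Macro_2. The study's sample sheet gives kit version 3 to brain at 72 h and dura at 24 h and version 2 to the others, which is not the division seen in the counts. Levels are therefore compared below between control and stroke of pia and dura, all on the longer list. Counts of called genes and several of the ratios that include the pair are also given without it, a setting chosen after seeing the data. The tallies of marker lists within libraries are given with the pair only, apart from that of the mature migratory genes.

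The depth behind the mDC2 values was 40731 UMIs (unique molecules) in control brain, 88465 in brain at 24 h replicate 1, 254941 in replicate 2 and 482511 in brain at 72 h. In pia it was 376162 in the control and 547221 after MCAO, and in dura 637872 and 668988. The median was 2780.5 to 3245 UMIs per mDC2 cell in 7 libraries and 5439.5 in brain at 24 h replicate 2, with 1.19 to 1.63% of UMIs from mitochondrial genes. Control brain (15 cells) and brain at 24 h replicate 1 (29 cells) fell under the minimum of 30 cells that was set for fitted comparisons, so their levels are given as values only. Intervals and limits given for shares cover counting error only.

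mDC2 cells were rare in control brain and common in the membranes. They made up 0.349% of annotated cells in control brain (15 of 4297, 95% Clopper-Pearson interval 0.196 to 0.575%), 0.633% (0.424 to 0.908%) and 1.33% (0.973 to 1.77%) in the brain libraries at 24 h, and 2.78% (2.38 to 3.22%) in brain at 72 h. In pia the share was 4.09% (3.39 to 4.89%) in the control and 4.84% (4.19 to 5.56%) at 24 h. In dura it was 7.33% (6.39 to 8.35%) in the control and 4.91% (4.3 to 5.58%) at 24 h. The brain shares after MCAO were all above the control value, the pia intervals overlapped, and the dura share was lower after MCAO with intervals that did not overlap.

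Averaged over the 3 tissues, the share after MCAO differed from control by -0.144 percentage points, and an exact two-sided permutation test of the condition within tissue gave p = 0.938 over 16 assignments, the smallest possible value being 0.0625. Microglia fill most of the control brain library. Outside the clusters Micro_1, Micro_2 and Micro_3 the mDC2 share was 2.6% in control brain, 1.82 and 2.36% at 24 h, and 3.21% at 72 h. The cluster stress_Micro, which the study also counts as microglia and reports as larger in brain at 24 h, stayed in this denominator. The rise in brain was not present at 24 h with this denominator, and a share without stress_Micro was not computed. A share of sorted cells does not tell how many cells a tissue held.

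The label was checked against marker lists within the 6 libraries with at least 30 cells of each cluster. Because the clusters were made from these same counts, the values are a description and carry no test. Of 2898 genes with at least 50 CPM on average in mDC2 or mDC1, 77 (2.66%) were at least 2-fold apart in the same direction in all 6 libraries. They comprised 53 (1.83%) higher in mDC2 and 24 (0.828%) lower. Against Macro_2 the numbers were 131 of 2763 (4.74%), with 68 (2.46%) higher and 63 (2.28%) lower. Without the pair on the shorter list, where fewer libraries had to pass, 168 and 318 genes were past the fold.

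Cd209a, a C-type lectin receptor and the given marker of the cluster, was at 4567 CPM in control dura, 5072 in control pia, 3785 in dura at 24 h and 2423 in pia at 24 h. It was at 800.2 CPM in brain at 24 h replicate 2 and 744 in brain at 72 h, the pair on the shorter gene list, and at 5696 in control brain and 1922 in brain at 24 h replicate 1. Its mean log2 ratio was 3.03 ± 1.49 (SD, n = 6 libraries) to mDC1 and 5.32 ± 1.63 to Macro_2, and 3.52 ± 1.65 and 6.17 ± 1.14 (n = 4) without the pair. Mgl2, a galactose-binding lectin, was higher than in mDC1 in every library (4.39 ± 0.82) but not 2-fold higher than in Macro_2 in every library (1.9 ± 1.1). Clec10a, a further lectin of cDC2, was past 2-fold against Macro_2 in every library (2.27 ± 0.77) and not against mDC1 (1.68 ± 1.44). Without the pair (n = 4) the ratios of Mgl2 were 4.8 ± 0.57 to mDC1 and 1.46 ± 0.79 to Macro_2. Those of Clec10a were 2.17 ± 1.5 and 2.5 ± 0.87. Of the 8 cDC2 genes with enough counts, 2 were higher than in mDC1 in all libraries (median log2 ratio 0.77, against -0.23 over all genes) and 2 higher than in Macro_2 (median 0.03, against 0.05). Flt3, the growth factor receptor of dendritic cells, was present at 58.8 to 122.8 CPM in all 8 libraries. It did not set mDC2 apart from mDC1: in control dura it gave 78 UMIs in mDC2 and 153 in mDC1, at similar depth. Of the conventional DC genes with enough counts, 0 of 8 were higher than in mDC1 in every library (median log2 ratio -0.608, against -0.23 over all genes). Against Macro_2, 1 of 5 was higher, Zbtb46 (median 1.83, against 0.05).

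Genes of mature migratory dendritic cells were high in the cluster's sums, and for some of them a minority of its cells carried these sums in the control membranes. Of 15 such genes with enough counts, 13 were at least 2-fold higher than in mDC1 in every library and 12 higher than in Macro_2, with median log2 ratios of 4.57 and 6. Without the pair the counts were again 13 and 12 of 15, with medians of 4.05 and 5.84. Fscn1 averaged 725 CPM in mDC2 and 11.6 in mDC1, and Ccr7 1007 CPM in mDC2 and 11.1 in Macro_2. Ccl5, Ccl22 and Ccl17, chemokines that attract T cells and other leukocytes, had mean log2 ratios to mDC1 of 6.34 ± 1.16, 6 ± 1.91 and 4.57 ± 1.12, and of 6.46 ± 0.25, 4.96 ± 0.29 and 4.05 ± 0.45 (n = 4) without the pair. Il12b, which codes for a subunit shared by interleukins 12 and 23, had ratios of 5.37 ± 1.06 to mDC1 and 6.39 ± 2.08 to Macro_2. Without the pair its ratios were 5.22 ± 1.33 and 6.64 ± 2.6 (n = 4). Cacnb3, a calcium channel subunit used as a marker of this state, and Nudt17 were nearly absent from both other clusters, at under 1 CPM on average against 116.3 and 72 CPM in mDC2. In control pia and dura, the mDC2 cells without a Ccr7 or Fscn1 UMI had Ccl5 at 65 and 200.6 CPM, against 20970 and 22950 CPM in those with one. Cacnb3 was at 0 and 1.88 CPM against 375.2 and 300.3 CPM, and Il12b at 15.5 and 26.2 CPM against 806.7 and 2499 CPM. The levels of these 3 genes were thus not those of most cells of the cluster. Ccl17 did not differ in this way. It was at 495.6 and 577.5 CPM in the cells without such a UMI, against 487.8 and 513.4 CPM. The T cell costimulatory and checkpoint ligands gave 2 of 7 higher than mDC1 (Tnfsf9 and Cd274) and 3 of 7 higher than Macro_2 (Cd40, Cd80 and Cd274). Cd274, the ligand of the PD-1 receptor, was at 70.8 CPM against 12.8 in mDC1 and 8.74 in Macro_2.

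**Figure D1:**
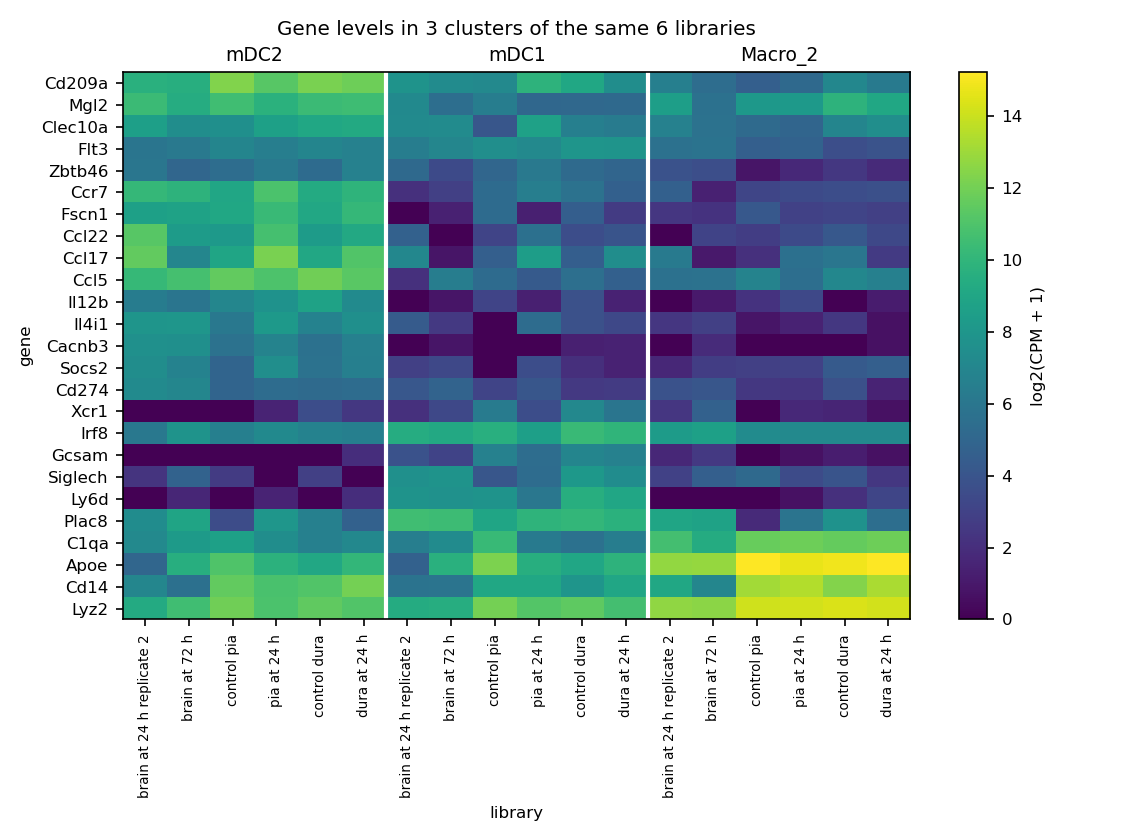
Levels of 25 genes as log2(CPM + 1), shown by colour, in mDC2, mDC1 and Macro_2 (blocks of columns) of the 6 libraries with at least 30 cells of each cluster. The genes from Ccr7 to Socs2 are bright in mDC2 in all 6 libraries and dark in most columns of the other clusters, while Apoe and Lyz2 are brightest in Macro_2.

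Of the 24 genes lower in mDC2 than in mDC1 in every library, 7 were in the lists of other dendritic cells and 2, Ly6c2 and Plac8, in the monocyte list. Plasmacytoid dendritic cell genes gave 4 of 6 lower in every library, among them Ly6d (1.15 against 329.5 CPM) and the receptor Siglech (7.08 against 155.6 CPM), and cDC1 genes gave 3 of 9, Gcsam, Irf8 and Ppt1. Clec9a, an F-actin receptor of cDC1, was listed at 0 in 6 of 8 mDC2 libraries and averaged 52.8 CPM in mDC1, with log2 ratios of -6.44 to -0.75 in the 6 libraries. Against Macro_2, 8 of 12 border macrophage genes were lower, including Apoe, a lipid carrier (893.7 against 24515 CPM), and the complement genes C1qa, C1qb and C1qc. Lyz2, lysozyme, was at 2175 CPM in mDC2, 2040 in mDC1 and 14873 in Macro_2. Of the MHC class II genes, which present antigen to CD4 T cells, 0 of 11 were past 2-fold against mDC1 and 1 (H2-DMb2) against Macro_2. Cd74, the class II invariant chain, was at 96810 to 118400 CPM in the pia and dura libraries and at 19180 and 15820 CPM in the pair on the shorter list.

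T and B cell markers were near zero. The summed level of 5 T cell genes in mDC2 was 0 to 29 CPM, against 3629 to 8131 CPM in the T cell cluster, and that of 5 B cell genes was 0 to 26.9 CPM. In contrast, the 15 border macrophage genes summed to 753.1 to 4644 CPM in mDC2, led by Apoe, and stood at 883 to 5394 CPM in the T cell cluster of the same libraries, which does not express them.

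The cells of the cluster differed in their Cd209a, Ccr7 and Fscn1 UMIs. To compare libraries of different depth, each mDC2 cell was thinned to 1000 UMIs, which left out 16 cells. A Cd209a UMI was then found in 77% (70.6 to 82.6%) of cells in control dura and 80.9% (72.5 to 87.6%) in control pia, against 2.96% and 1.03% of T cells, which lack the gene. A Ccr7 or Fscn1 UMI was found in 17.6% (12.7 to 23.6%) and 13.9% (8.17 to 21.6%) of mDC2 cells. Ccr7 was found in 1.03% and 0.604% and Fscn1 in 0.688% and 1.01% of the thinned Macro_2 cells of these libraries, so the mDC2 shares were not at the level of free RNA. Both kinds of UMI together were found in 9 of 204 and 5 of 115 cells. Cells with and without a Ccr7 or Fscn1 UMI are ranges of one cluster and not types: 10 of the 36 positive cells of control dura and 3 of the 16 of control pia held a single such UMI.

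After MCAO the range with a Ccr7 or Fscn1 UMI was larger in every tissue. Its share was 41.9% (34.8 to 49.4%, 78 of 186 cells) in pia at 24 h and 29.2% (23.3 to 35.7%, 64 of 219) in dura at 24 h. In brain it was 1 of 14 cells in the control (7.14%, 0.181 to 33.9%), 58.6% (38.9 to 76.5%) and 30.4% (17.7 to 45.8%) at 24 h and 35.2% (27.9 to 43.1%) at 72 h. The pia intervals did not overlap, those of dura overlapped, and that of control brain overlapped those of the pair on the shorter list but not that of the first replicate at 24 h. All 5 libraries after MCAO lay above the control of their tissue, by 24.6 percentage points on average over tissues, and the exact two-sided permutation test within tissue gave p = 0.125 over 16 assignments. That design allows no p below 0.0625. Without thinning, a Ccr7 UMI was seen in 15.7% of cells in control pia and 52.1% in pia at 24 h, and in 25.7% and 39.6% in dura. Cd209a moved the other way: its share fell to 59.7% (52.3 to 66.8%) in pia at 24 h, was 73.5% (67.2 to 79.2%) in dura at 24 h, and was 38.9 to 45.7% in the brain libraries after MCAO against 13 of 14 cells in control brain.

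**Figure D2:**
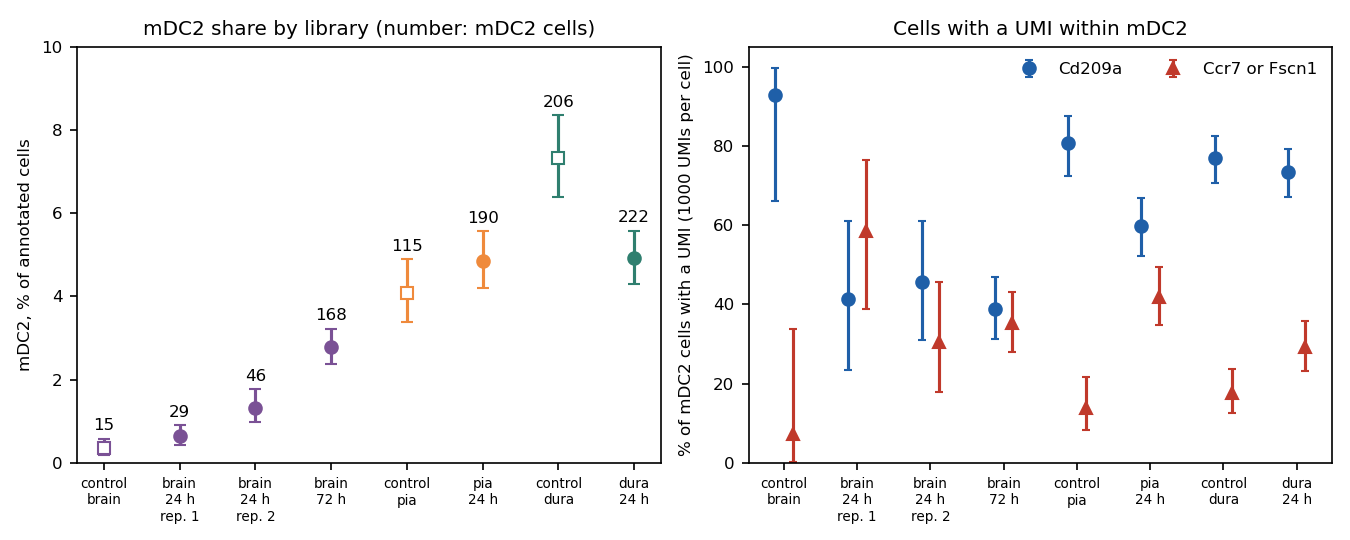
Left, mDC2 cells as a percent of annotated cells in each library, with 95% Clopper-Pearson intervals and the number of mDC2 cells; open squares are controls and filled circles libraries after MCAO. Right, the percent of mDC2 cells, each thinned to 1000 UMIs, with a UMI of Cd209a (circles) or of Ccr7 or Fscn1 (triangles), with the same intervals; triangles are higher after MCAO than in the control of each tissue.

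The content of both ranges also differed between control and stroke, which is described here without a test. In cells with a Ccr7 or Fscn1 UMI, Ccl5 was at 20970 CPM in control pia and 22950 in control dura, and at 4816 in pia and 8418 in dura at 24 h. Il12b was at 806.7 and 2499 CPM in the controls and 500.8 and 456.1 CPM at 24 h. Both were lower after MCAO in each membrane. Ccl17 went the other way, from 487.8 to 8773 CPM in pia and from 513.4 to 5189 CPM in dura, and Ccl22 from 1144 to 4024 CPM and from 1017 to 1856 CPM. In brain at 24 h the same range had 12230 and 5338 CPM of Ccl17, and in brain at 72 h 86.9 CPM. Fabp5, a fatty acid binding protein, was higher in this range: it was at 243.9 and 164.7 CPM in control pia and dura, at 1134 and 881.2 CPM at 24 h, and at 2657, 6511 and 4628 CPM in the brain libraries after MCAO, while the cells without such a UMI stood at 3.1 to 135.3 CPM in these 7 libraries. Cd209a in the cells without a Ccr7 or Fscn1 UMI was lower after MCAO as well, at 5656 and 3320 CPM in control pia and pia at 24 h and at 5291 and 4681 CPM in dura.

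**Figure D3:**
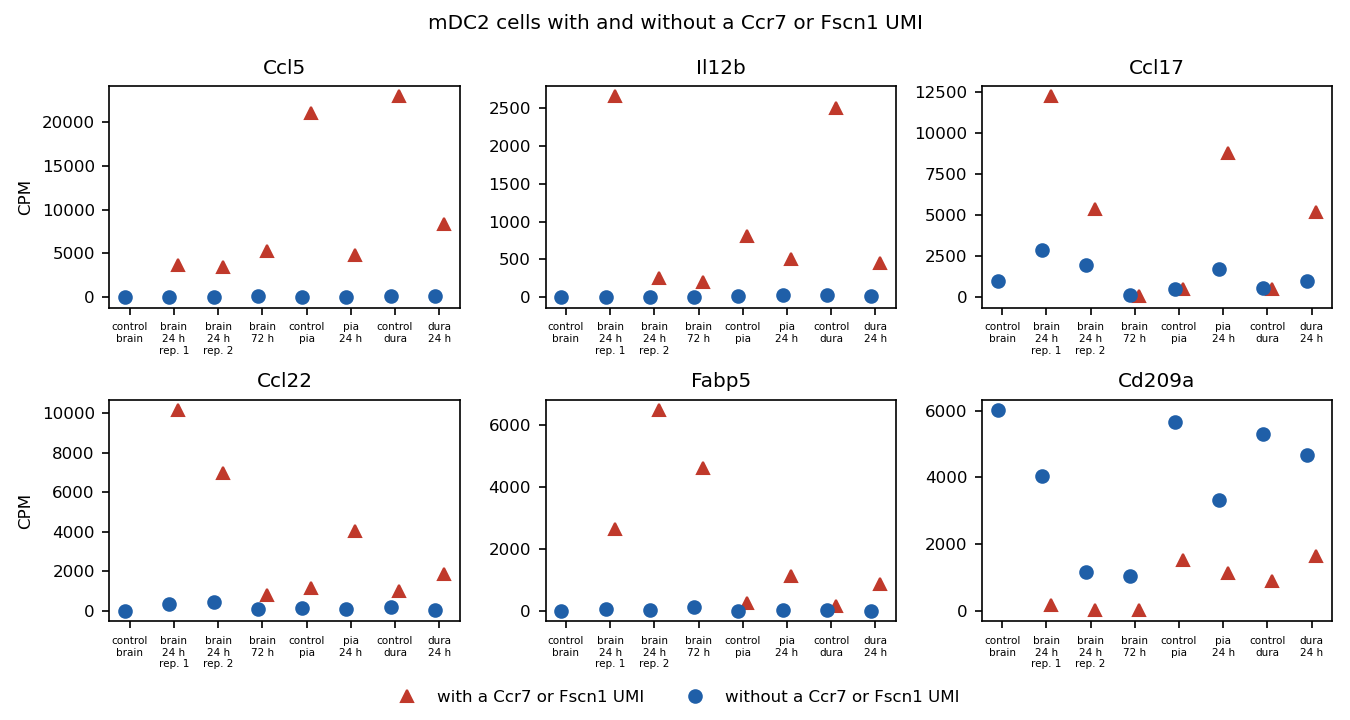
CPM of 6 genes in mDC2 cells with (triangles) and without (circles) a Ccr7 or Fscn1 UMI after thinning, by library; ranges of fewer than 10 cells, that is the 1 positive cell of control brain, are not drawn. Ccl5 and Il12b triangles are lower and Ccl17, Ccl22 and Fabp5 triangles higher after MCAO in pia and dura.

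The comparison of all mDC2 cells between stroke and control used sums per library and edgeR with terms for tissue and stroke, over the 6 libraries with at least 30 mDC2 cells. Since both brain libraries in it are after MCAO, the stroke estimate comes from pia and dura, and 2 residual degrees of freedom remain. These brain libraries, at 24 and 72 h, were treated as replicates in this fit and in the interaction fits below. Their difference in time is thus part of the spread behind the p-values. Of 5669 genes tested, 49 (0.864%) passed an adjusted p of 0.05 and a 2-fold change, 16 (0.282%) higher and 33 (0.582%) lower after MCAO, and all 49 changed in the same direction in pia and in dura. Against control brain, brain at 24 h replicates 1 and 2 and brain at 72 h had 14, 14 and 13 of the 16 higher. They had 28, 22 and 23 of the 33 lower. With control brain and brain at 24 h replicate 1 added (minimum of 10 cells) 0 genes passed, 270 had an unadjusted p under 0.05, and DESeq2 called 11 on the 6 libraries. With only the 6 libraries on the longer list, 16 passed, of which 14 were among the 49. With pia and dura alone 64 passed, 48 of them among the 49. Leaving out 1 library gave 14 calls without control pia, 15 without pia at 24 h, 77 without control dura, 80 without dura at 24 h, 88 without brain at 72 h and 125 without brain at 24 h replicate 2. The smaller range of cells with a Ccr7 or Fscn1 UMI grew between control and stroke. A change in the mix of cells and a change within cells cannot be told apart in these sums. The stated kit was version 2 for control dura and version 3 for dura at 24 h, and version 2 for both pia libraries. Stated kit and stroke thus cannot be told apart in dura. The direction of the called genes within each range of cells is given further below.

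Of the mature migratory genes, 3 of 17 tested passed the test (Fscn1, Ccr7 and Il4i1), 12 of 17 had a positive fold change, and the median log2 fold change was 1.03 against -0.004 over all genes tested. Fscn1 was at 542.3 CPM in pia of controls and 1261 CPM after MCAO, and at 562.8 and 1145 CPM in dura (log2 fold change 1.07 ± 0.18 (SE), edgeR adjusted p = 0.00896). In brain it was at 49.1 CPM in the control, 3154 and 407.9 at 24 h and 431.1 at 72 h. Ccr7 was at 505.1 and 1921 CPM in pia and 620.8 and 970.1 CPM in dura (1.23 ± 0.25, adjusted p = 0.0435). Il4i1, a secreted amino acid oxidase of activated antigen-presenting cells, rose by 1.4 ± 0.29 (adjusted p = 0.0291). Ccl17 and Ccl22 had larger estimates, 2.54 ± 2 and 1.62 ± 1.48, but the brain libraries at 24 and 72 h were far apart for both and neither passed (edgeR adjusted p = 0.745 and 0.781). That spread is a difference between times as well as between libraries. In the membranes, control first, Ccl17 gave 186 and 2511 UMIs in pia and 361 and 1482 in dura. Ccl22 gave 111 and 922 UMIs in pia and 208 and 393 in dura. Ccl5 and Cd209a were lower without passing (-0.66 ± 0.18 and -0.71 ± 0.2, adjusted p = 0.122 and 0.124).

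Among the genes that rose most, Fabp5 was at 37.2 CPM in pia of controls and 478.8 CPM after MCAO, and at 40.8 and 260.1 CPM in dura (3.08 ± 0.28, adjusted p = 6.17e-05). It was listed at 0 in control brain and was at 1434 to 2055 CPM in the 3 brain libraries after MCAO. Slc7a11, the cystine transporter that supplies glutathione synthesis, was at 18.6 and 190.1 CPM in pia and 28.2 and 171.9 CPM in dura (2.85 ± 0.37, adjusted p = 0.00187). Tnfrsf9, the costimulatory receptor 4-1BB, was at 10.6 and 140.7 CPM in pia and 4.7 and 34.4 CPM in dura (3.29 ± 0.47, edgeR adjusted p = 0.00352). In each of these genes both membranes were higher after MCAO than either control. Slc7a11 rested on 7 and 104 UMIs in pia and 18 and 115 UMIs in dura. Tnfrsf9 rested on 4 and 77 UMIs in pia and 3 and 23 UMIs in dura, so its controls were near the floor. Ramp3, which modifies peptide hormone receptors, the purine enzyme Gda, Oaf and Cpne2 rose by 1.65 to 2.38. Igfbp6, a binding protein of insulin-like growth factors, was seen with 2 UMIs in the control membranes and 41 after MCAO, a ratio of 17.1 (counting interval 4.44 to 145.9). Fabp5 and the tetraspanin Cd63 (1.3 ± 0.19, adjusted p = 0.00352) were the 2 of 12 tested genes of the stroke-associated myeloid cell list that rose; that list comes from the study of these same libraries, and its median was 0.18.

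S100a8 and Ngp, genes of neutrophil proteins, also rose (1.97 ± 0.45 and 1.84 ± 0.34, adjusted p = 0.0491 and 0.022). Neutrophil genes summed in mDC2 to 10.6 CPM (control) and 67.6 CPM (MCAO) in pia and to 177.2 and 526.2 CPM in dura, and to 17.5, 102.6, 416.5 and 827.2 CPM in the T cell cluster of the same libraries. The T cell cluster thus showed the same order at higher levels.

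The genes that fell included immediate early genes, which cells switch on within minutes of a stimulus or of handling. They were tested in a list that also held NF-kappaB feedback genes such as Nfkbia and Tnfaip3. Of its 20 tested genes, 5 fell (Fos, Jun, Egr1, Atf3 and Btg2), 0 rose, 18 had a negative fold change, and the median was -0.91 against -0.004. Fos was at 704.5 CPM in pia of controls and 286.9 CPM after MCAO, and at 807.4 and 400.6 CPM in dura (-1.19 ± 0.2, adjusted p = 0.00896). Egr1 was at 151.5 and 34.7 CPM in pia and 122.3 and 44.8 CPM in dura (-1.79 ± 0.3, adjusted p = 0.00896). Atf3 was at 68.8 to 207.4 CPM in the pia and dura libraries but at 1667 and 1894 CPM in the pair on the shorter list. On the longer list it was at 761.1 CPM in control brain and 316.5 CPM in brain at 24 h replicate 1, also above every membrane value. Macro_2 cells of the same pia and dura libraries also had less Egr1 after MCAO (305.9 and 125.5 CPM in pia, 180.5 and 80.2 CPM in dura). In mDC1 it was at 78.3 and 12.5 CPM in pia and at 18.8 and 19.5 CPM in dura, so it was not lower in mDC1 of dura. Time from tissue to lysis was not tested.

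Serinc3, a membrane protein of the serine incorporator family, fell from 595.5 to 126.1 CPM in pia and from 462.5 to 143.5 CPM in dura (-2 ± 0.24, adjusted p = 0.000714). It was at 540.1 CPM in control brain and 101.7 to 182.4 CPM in the brain libraries after MCAO, so every library after MCAO lay below every control. Macro_2 gave 1403 and 427 CPM in pia and 1440 and 566.9 CPM in dura, and mDC1 634 and 165.3 and 792.8 and 248.1 CPM, also lower after MCAO. Tsc22d3, a glucocorticoid-induced leucine zipper gene, fell by 1.29 (adjusted p = 0.00871); it, Gbp2 and B2m were picked after their values were seen.

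Among the other genes that fell were some that interferons are known to induce. Irgm1, an interferon-inducible GTPase, was at 66.5 and 7.31 CPM in pia and 37.6 and 5.98 CPM in dura (-2.94 ± 0.49, edgeR adjusted p = 0.00896). It rested on 25 and 4 UMIs in pia and 24 and 4 UMIs in dura. Cxcl9, a chemokine induced by interferon gamma, was at 85.1 and 23.8 CPM in pia and 94.1 and 15 CPM in dura (-2.28 ± 0.38, adjusted p = 0.00896). Ifi47, a second GTPase of this kind, and Gbp2, a guanylate binding protein, fell by 1.81 and 1.57 (adjusted p = 0.0435 and 0.0378). Of 13 tested genes of the interferon response list, which does not hold the 4 genes above, 1 fell (Ifi27l2a, -1.34 ± 0.27, adjusted p = 0.0291), 0 rose, 11 had a negative fold change and the median was -1. Isg15 was one of the 2 others (0.49 ± 0.34, adjusted p = 0.621). B2m, the light chain of MHC class I, was lower by less than 2-fold (-0.8, adjusted p = 0.0252), and 0 of 11 MHC class II genes passed, with all 11 negative and a median of -0.29.

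As these genes are known interferon targets, the promoters of Irgm1 and Cxcl9 are given from RefSeq, build GRCm38.p6, from 250 bases before to 50 after the gene start; the table held 3 of the 4 genes Irgm1, Ifi47, Cxcl9 and Ifi27l2a. Capitals mark matches to GAAA, any 2 bases and GAAA again, a repeat bound by interferon regulatory factors, searched on both strands. It occurred in 3.44% of all 32851 promoters of the table. Irgm1 (chr11:48871371-48871670, minus strand) held 2 overlapping matches, starting 30 and 24 bases before the gene start, while Cxcl9 (chr5:92328030-92328329, minus strand) and Ifi47 held none in this window.
Irgm1: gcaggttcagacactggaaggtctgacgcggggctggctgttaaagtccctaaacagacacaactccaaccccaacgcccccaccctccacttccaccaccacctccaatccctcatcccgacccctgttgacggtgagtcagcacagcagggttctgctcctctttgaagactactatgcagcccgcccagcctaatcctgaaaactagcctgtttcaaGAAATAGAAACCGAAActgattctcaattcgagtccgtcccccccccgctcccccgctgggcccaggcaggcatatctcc
Cxcl9: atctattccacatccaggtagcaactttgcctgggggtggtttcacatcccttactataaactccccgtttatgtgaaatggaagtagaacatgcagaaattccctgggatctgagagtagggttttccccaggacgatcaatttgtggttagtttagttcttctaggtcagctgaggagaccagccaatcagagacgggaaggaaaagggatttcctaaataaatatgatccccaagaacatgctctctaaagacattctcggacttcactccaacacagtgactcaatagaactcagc

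Other genes that fell were Hepacam2 (-2.2 ± 0.32), the prostaglandin-degrading enzyme Hpgd (-2.01 ± 0.39), the cytokine Il1a (-2.8 ± 0.61) and Rasgef1b (-1.76 ± 0.34), and Adgre1, the macrophage antigen F4/80, was the 1 of 10 tested border macrophage genes to fall (-2.14 ± 0.42). The edgeR adjusted p of these 5 genes was 0.00352 to 0.0432. Il1a rested on 15 and 5 UMIs in pia and 18 and 1 UMIs in dura. Rasgef1b fell in the membranes only. Against control brain, which held 0 UMIs of it, the brain libraries after MCAO had log2 ratios of 2.58, 3.83 and 2.77. Glycolysis and hypoxia genes gave 0 of 16 called in either direction with a median of 0.32, heat shock genes 0 of 10 with a median of 0.33, and conventional DC identity genes 0 of 8 with a median of -0.04. None of 8 costimulation and checkpoint genes passed, with Cd86, the ligand of CD28, at 1.11 ± 0.32 (adjusted p = 0.169).

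**Figure D4:**
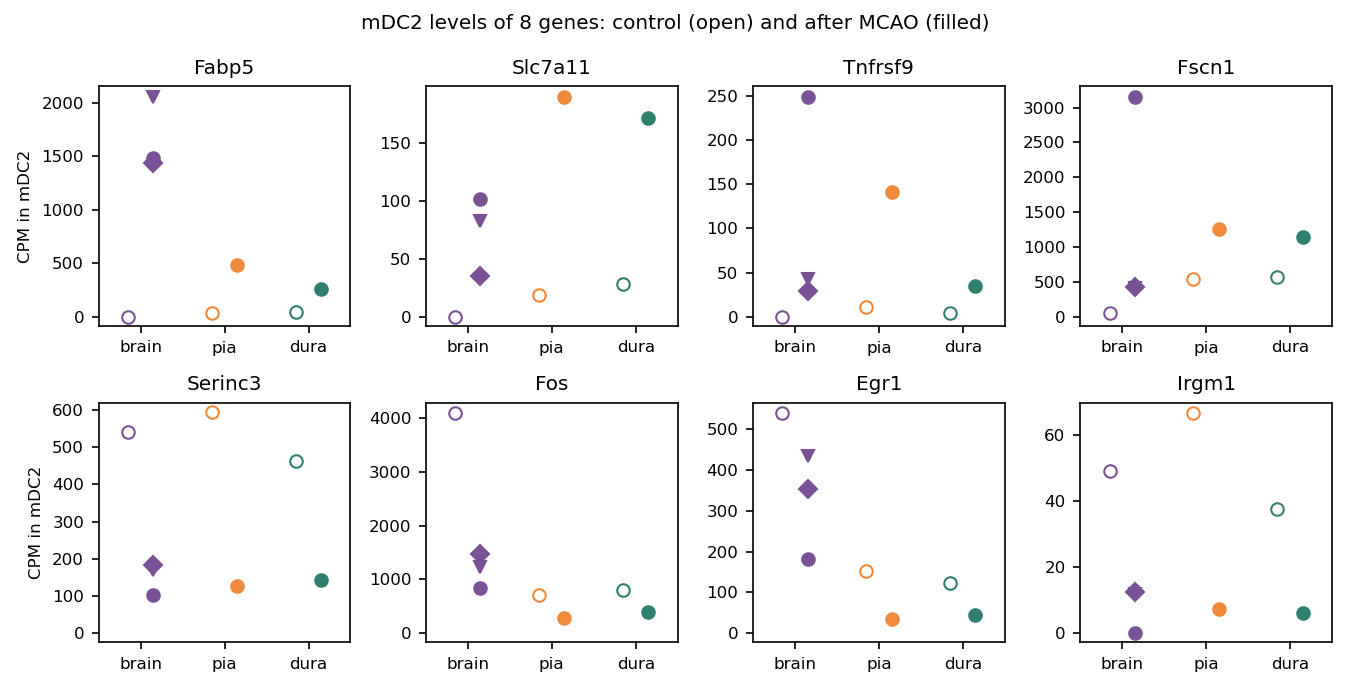
CPM in mDC2 of 8 genes by tissue, with open symbols for controls and filled symbols for libraries after MCAO (triangle brain at 24 h replicate 2, diamond brain at 72 h). Fabp5, Slc7a11, Tnfrsf9 and Fscn1 are higher and Serinc3, Fos, Egr1 and Irgm1 lower after MCAO in pia and dura.

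In cells without a Ccr7 or Fscn1 UMI, described without a test for Serinc3 and Fabp5, which were picked for this after their values were seen, Serinc3 was at 591.6 CPM in pia of controls and 163.2 CPM after MCAO, and at 480 and 156.4 CPM in dura. In cells with such a UMI it was at 619.1 and 72.8 CPM and at 377.8 and 114 CPM, so it was lower after MCAO in both ranges. Fabp5 in cells without such a UMI was at 3.1 and 18.5 CPM in pia but at 16.9 and 8.45 CPM in dura, so its higher level in dura after MCAO was not seen in those cells. Of the 33 genes called lower, 33 were lower in both membranes in cells without such a UMI and 27 in cells with one. Of 14 called higher, leaving out Ccr7 and Fscn1, 13 and 12 were higher in both membranes. Fabp5 was the exception in cells without such a UMI. The genes had been called on these same cells, so the counts carry no test.

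Dura and pia were compared in the same fit. Few genes differed: 11 of 5669 (0.194%) passed, 8 (0.141%) higher and 3 (0.0529%) lower in dura, and 294 had an unadjusted p under 0.05. DESeq2 called 2. Leaving out any 1 library gave 18 to 33 calls, and pia and dura alone gave 8. With only the longer-list libraries 3 passed, all of them higher in dura and among the 11, and with the minimum of 10 cells 0 passed. The lists of cDC2, mature migratory, MHC class II, and immediate early and NF-kappaB feedback genes had 10, 17, 11 and 20 genes tested. In them 0 genes passed in either direction, with medians of 0.26, -0.01, 0.02 and 0.06 against -0.008 over all genes.

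The genes higher in dura were mostly known from other cells. Iglc1, Igkc and Jchain code for parts of antibodies made by plasma cells, Ngp, Camp and S100a8 for neutrophil granule and cytosolic proteins, and Cma1 for a mast cell protease. Iglc1 gave 166 UMIs in dura and 0 in pia, at least 39.1-fold higher against 3 counts over the pia libraries, and Jchain (66 and 0 UMIs) and Cma1 (49 and 0 UMIs) were at least 15.5-fold and 11.5-fold higher. Iglc1 and Ngp stood at like levels in the other clusters. In the dura libraries, control first, Iglc1 was at 61.1 and 189.8 CPM in mDC2, 64.2 and 180.7 CPM in mDC1 and 63.7 and 181.8 CPM in Macro_2, and Ngp at 72.1 and 239.2, 86.2 and 239.2, and 99.8 and 232.9 CPM. H2-M2, a nonclassical MHC class I gene, was at 59.6 and 37.4 CPM in mDC2 of dura, 10.6 and 1.83 CPM in that of pia, and listed at 0 in mDC1 of all 8 libraries. In Macro_2 it was at 51.9 and 17.7 CPM in dura and 4.16 and 0 CPM in pia, the same direction. Lower in dura were the chemokine Ccl12 (26.7 and 15 CPM against 130.3 and 74.9 CPM in pia, -2.27 ± 0.36, edgeR adjusted p = 0.00952), the prostaglandin D synthase Ptgds (2 against 30 UMIs) and the isoprenoid enzyme Fdps (-1.78 ± 0.34, adjusted p = 0.0382). Ccl12 was at 2822 and 1946 CPM in Macro_2 of pia and 999.7 and 704.5 CPM in that of dura, so it had the same direction there.

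Whether mDC2 responded differently from mDC1 was tested by an interaction of cluster and stroke, with the library as a block, over 6985 genes. It gave 11 calls (0.157%), 5 (0.0716%) with a more positive and 6 (0.0859%) with a more negative stroke effect in mDC2, and 323 genes had an unadjusted p under 0.05. DESeq2 called 0 with 42 at an unadjusted p under 0.05, and without control pia 1 gene was left and without control dura 37 were called. Without the pair on the shorter list 0 genes passed and 252 had an unadjusted p under 0.05, so these 11 calls rest on including that pair. The adjusted p of Fscn1 and Mt1 was then 0.208, with differences of 4.03 and -1.4. The make-up of mDC1 also differed between conditions, not alike in both membranes. Its cDC1 genes summed to 3194 CPM in control pia and 1274 CPM after MCAO, and to 4155 and 3386 CPM in dura. Its cDC2 genes were higher after MCAO in pia (900.2 and 1773 CPM) and lower in dura (1206 and 777.9 CPM), and its plasmacytoid genes lower in both (853.2 and 513 CPM, 2473 and 1575 CPM). Its border macrophage genes were lower after MCAO in pia (10638 and 1584 CPM) and higher in dura (1033 and 1634 CPM). The part of this make-up in these differences was not tested. Fscn1 rose in mDC2 as given above and was at 39.1 and 1.56 CPM in mDC1 of pia and 21.9 and 5.32 CPM in that of dura (difference 3.99 ± 0.65, edgeR adjusted p = 4.49e-05). These mDC1 values rested on only 5 and 1 UMIs in pia and 14 and 3 UMIs in dura, so part of the difference lies near the floor. Bcl2l1, which codes for the survival protein Bcl-xL, differed by 2.64 ± 0.63 (adjusted p = 0.0297). The metallothioneins Mt1 and Mt2, which bind zinc, had more negative effects in mDC2 (-1.45 ± 0.23 and -1.86 ± 0.36, adjusted p = 1.37e-05 and 0.000661). Mt1 was at 4166 and 1957 CPM in mDC2 and 618.4 and 734.4 CPM in mDC1 of pia, and at 4070 and 4499 CPM and 492 and 1512 CPM in dura, so its value was lower in mDC2 of pia after MCAO and higher in mDC1 of dura. Ifitm1, an interferon-induced membrane protein, had higher values after MCAO in both clusters: it was at 31.9 and 555.5 CPM in mDC2 and 54.8 and 3716 CPM in mDC1 of pia, and at 81.5 and 237.7 CPM and 81.5 and 584.8 CPM in dura (-1.52 ± 0.33, adjusted p = 0.00962).

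Against Macro_2, 4 of 7208 genes passed (0.0555%), 1 (0.0139%) more positive and 3 (0.0416%) more negative in mDC2, with 389 at an unadjusted p under 0.05, and DESeq2 called 0 with 41. Without the pair 24 passed, among them the 4. The one was again Fscn1 (2.14 ± 0.37, edgeR adjusted p = 0.00386), at 6.31 to 17.5 CPM in Macro_2 of pia and dura. Plaur, the urokinase receptor, was at 893.2 and 358.2 CPM in mDC2 and 479.8 and 898.6 CPM in Macro_2 of pia, and at 721.1 and 427.5 CPM and 475.9 and 604.8 CPM in dura, lower after MCAO in mDC2 and higher in Macro_2 in both membranes (-1.61 ± 0.24, adjusted p = 0.0022). Rgl1 and Il17ra, an interleukin 17 receptor chain, were the others.

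The difference between dura and pia was compared in the same way. Against mDC1 it differed for 46 of 6985 genes (0.659%), 35 (0.501%) with a more positive dura value in mDC2 and 11 (0.157%) with a more negative one, and DESeq2 called 0 with 97 at an unadjusted p under 0.05. Without the pair 20 passed, all among the 46, with Lilrb4a and Il1rn among them. Lilrb4a, an inhibitory receptor, was at 340.3 and 652.4 CPM in mDC2 of pia and 288.5 and 487.3 CPM in that of dura, and in mDC1 at 187.9 and 701.7 CPM in pia and 36 and 70.9 CPM in dura (difference 2.56 ± 0.33, edgeR adjusted p = 1.06e-09). Il1rn, the interleukin 1 receptor antagonist, was at 108.2 to 166.3 CPM in the 4 mDC2 sums, at 7.83 and 85.8 CPM in mDC1 of pia and at 0 and 7.09 CPM in that of dura (3.42 ± 0.7, adjusted p = 0.000848). The integrin Itgam, the lectin Clec4a3 and Ms4a6d differed by 2.47, 2.63 and 2.45, and each was lower in mDC1 of dura than of pia in both conditions. Clec4a3 was at 78.3 and 42.1 CPM in mDC1 of pia and 6.27 and 12.4 CPM in that of dura. Stmn1, a tubulin-binding protein of dividing cells, was among the 11 (-2.85 ± 0.45, adjusted p = 2.64e-06). mDC1 held cDC1 and plasmacytoid genes, whose sums were 4155 and 2473 CPM in control dura and 3194 and 853.2 CPM in control pia, so the make-up of mDC1 differed between the membranes, and its part in these differences was not tested. Against Macro_2 only 3 of 7208 genes (0.0416%) passed, 2 (0.0277%) more positive (Tnfsf9 and Dnaja1) and 1 (0.0139%) more negative (Mmp12), with 424 at an unadjusted p under 0.05, and DESeq2 called 0 with 43. Without the pair 33 passed, among them the 3.

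**Figure D5:**
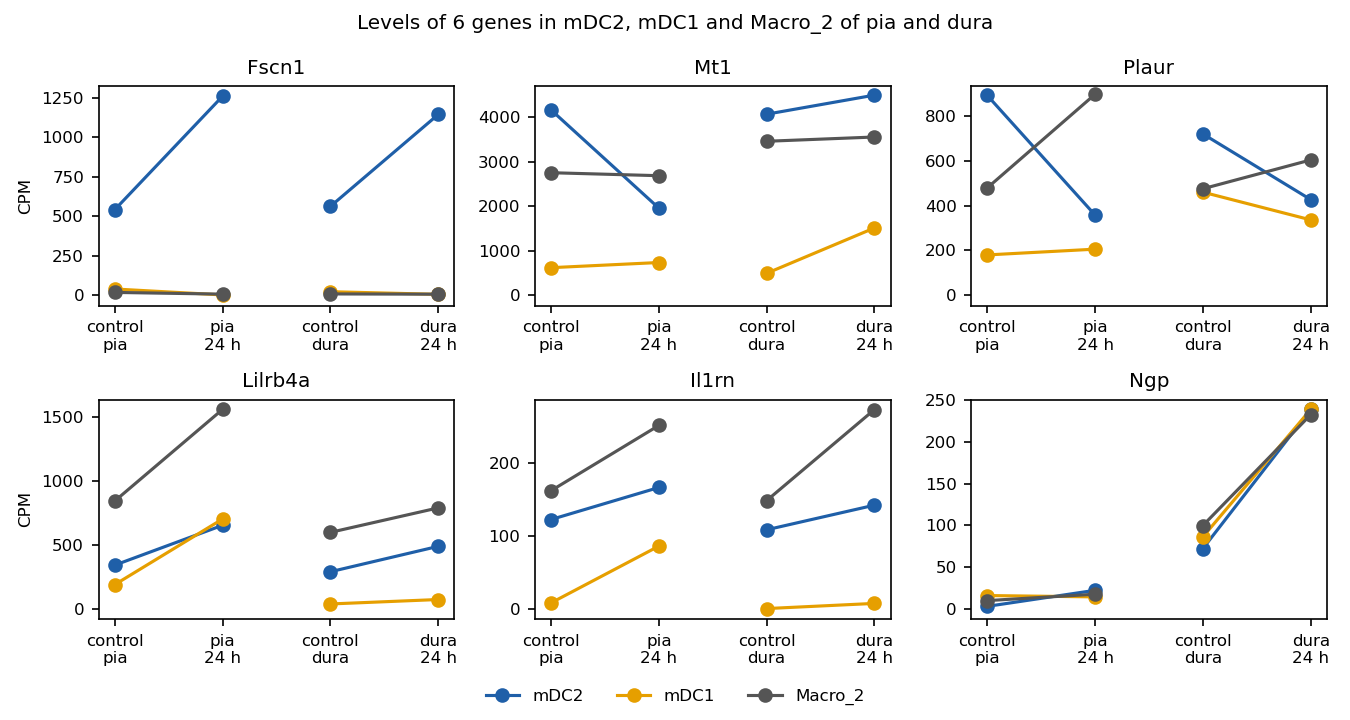
CPM of 6 genes in mDC2, mDC1 and Macro_2 of the control and 24 h libraries of pia and dura, with a line joining the libraries of one tissue and cluster. Fscn1 rises in mDC2 alone among the 3 clusters, Plaur falls in mDC2 and rises in Macro_2, Lilrb4a and Il1rn in mDC1 are lower in dura, and Ngp stands at like levels in all 3 clusters.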

How the data were processed

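The authors deposited UMI counts per gene and barcode with no normalization; the submitters' processing notes name Cell Ranger 6.0 and mm10. For the annotation the authors filtered cells by genes and mitochondrial share, removed doublets with scDblFinder, and clustered with SCTransform, Harmony and Louvain in Seurat before naming clusters by hand; no doublet caller was run again. Genes were matched by Ensembl identifier (30406 shared by the 8 libraries), and symbols were taken from the first library's list. Total counts per library were 6591898 to 20754181 UMIs.

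Counts were summed per library and cluster, and CPM used the shared genes. edgeR 4.0.16 (filterByExpr, TMM, robust quasi-likelihood F test, R 4.3.3) tested sums with at least 30 cells; called means a Benjamini-Hochberg adjusted p under 0.05 over all genes and at least 2-fold. Standard errors follow from the F statistic. Within-library ratios had 0.5 counts added. For single cells each cell was thinned to 1000 UMIs, dropping shallower cells. DESeq2 1.42.0, other scalings, filters and cell minimums, and leaving out libraries were alternatives. On simulated counts for the stroke comparison (5669 genes), edgeR recovered 73% of 200 genes changed 4-fold, and 3.31% of its calls were false. For dura against pia (5669 genes) these were 77% and 6.67%. For the stroke and dura-pia interactions recovery was 37 and 38% against mDC1 (6985 genes) and 54.5 and 53% against Macro_2 (7208 genes), with 0 to 3.64% of calls false.

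Genes named are list genes, the 10 highest and 10 lowest called fold changes with one direction in both pairs, genes of the study text (Cd209a, Ifitm1, Clec9a, Lyz2), and the 10 highest and lowest within-library ratios. The members, the gene lists and the tests were chosen with earlier results of these data known. 3 list genes were not matched and are not analysed here. One control is named brain in its title but pia in every other label, and was used as pia.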

Additional observations from a re-analysis of the deposited data

Results flagged for a closer look

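As a percent of all annotated cells, the mDC2 share had opposite signs of change between tissues after MCAO. It was higher than in control brain by 0.284 and 0.977 percentage points in the brain libraries at 24 h and by 2.43 at 72 h, higher than in control pia by 0.752, and lower in dura at 24 h (-2.42 percentage points); the difference between tissues was not tested. Outside Micro_1, Micro_2 and Micro_3, with stress_Micro still counted, the brain share was lower than control at 24 h (1.82 and 2.36% against 2.6%), as in dura. It was higher at 72 h (3.21%), and the pia intervals overlapped.

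Genes whose stroke effect or dura-pia difference differed between mDC2 and another cluster were found by the edgeR interaction test. For stroke against mDC1 these were 11 genes, 0 of which passed without the pair of libraries on the shorter gene list: log2 differences were 3.99 for Fscn1, 3.43 for Tmcc3, 2.64 for Bcl2l1, 2.1 for Ell2 and 1.24 for Tmem176a, and -1.93 for Hilpda, -1.86 for Mt2, -1.52 for Ifitm1, -1.45 for Mt1, -1.24 for Wfdc17 and -1.17 for Ifitm2. For stroke against Macro_2 they were 4 genes, with 2.14 for Fscn1, -2.2 for Rgl1, -1.78 for Il17ra and -1.61 for Plaur.

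For dura against pia relative to mDC1, 46 genes were called. The largest positive differences were 3.75 for Xdh, 3.64 for Anxa3, 3.6 for Sirpb1c, 3.47 for Adgre1, 3.42 for Il1rn, 2.87 for Krt80, 2.63 for Clec4a3, 2.56 for Lilrb4a, 2.47 for Itgam and 2.45 for Ms4a6d. The largest negative ones were -6.24 for Cxcl10, which is listed at 0 in mDC1 of both pia libraries so that its fitted size depends on the prior count, -4.97 for Spns3, -3.11 for Cd200, -2.85 for Stmn1, -2.72 for Rgcc, -2.21 for Ifi205, -1.98 for Tsc22d1, -1.71 for Hmgn2, -1.5 for Jaml and -1.36 for Ppt1. Relative to Macro_2, 3 genes were called, with 1.38 for Tnfsf9, 1.03 for Dnaja1 and -2.88 for Mmp12.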

How the results depend on the processing

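The count of genes called for stroke was 11 with DESeq2, 112 with no low-count filter, 0 with a minimum of 10 cells, 2 with cells thinned to 1000 UMIs, 0 with tissue left out of the model and 88 with the library at 72 h left out. It was 14 (without control pia) to 125 (without brain at 24 h replicate 2) when 1 library was left out. For dura against pia the count was 2, 37, 0, 0 and 0 in the first 5 of these settings, 4 with the stated kit as a term, and 18 (without brain at 72 h) to 33 (without brain at 24 h replicate 2). Settings chosen after seeing the data gave 16 and 3 genes with the 6 longer-list libraries, and 56 and 10 with the gene list as a term. Egr1 reversed to 0.44 with tissue left out.

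The stroke interaction with mDC1 gave 0 with DESeq2, 17 with library sizes in place of TMM, 1 with thinned cells and 1 (without control pia) to 37 (without control dura). That with Macro_2 gave 0, 2, 10 (no filter), 8 (minimum of 10 cells), 9 (thinned) and 2 (without pia at 24 h) to 25 (without brain at 24 h replicate 2). The dura-pia interaction with mDC1 gave 0 with DESeq2, 70 with library sizes, 19 with thinned cells and 15 (without dura at 24 h) to 88 (without brain at 72 h). That with Macro_2 gave 0 with DESeq2, 22 with no filter, 9 with the minimum of 10 cells, 23 with thinned cells and 11 (without either control membrane) to 29 (without brain at 24 h replicate 2). With the pair of shorter-list libraries left out, a setting chosen after seeing the data, the 4 interactions gave 0, 24, 20 and 33 in this order. The cause was not tested in any of these.

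The mDC2 share difference reversed to 0.338 percentage points in cells with at least 1000 UMIs and was -0.102 to 0.0134 without 1 brain library at 24 h. Genes past 2-fold against Macro_2 in every library were 67 with the minimum of 10 cells, and with the pair left out they were 318, and 168 against mDC1. Of 945 gene and setting pairs over the 69 named results, 567 kept direction and side of the threshold, 377 kept direction only and 1 reversed. Beyond the tissue and library terms, no pairing by replicate was possible because the labels number only the 2 brain libraries at 24 h.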
